A study of Rattus norvegicus with 8 samples.

Results

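Interferon-stimulated and antigen processing genes were followed in the livers of 8 rats. The set lists 32 genes, chosen by name with earlier results of these data known. It holds the transcription factors of the interferon response, its antiviral effectors and guanosine triphosphatases. It also holds the proteasome, transporter and light chain genes that load peptides onto class I molecules. Members were found through probe sets annotated to exactly 1 gene, under the current symbol or an older one (Rigi through its RefSeq symbol Rig1 and its alias Ddx58). This gave 31 of the 14217 genes with such a probe set, and Xaf1 had none. The animals were male Sprague-Dawley rats, an outbred stock, aged 7 weeks. For 2 weeks both groups ate CRF-1 rodent diet to which cholesterol (10 g/kg) and cholic acid (5 g/kg) had been added, so that every control was a rat on a sterol-loaded diet. The diet of the L. brevis group held in addition Lactobacillus brevis 119-2, a turnip isolate, freeze-dried and viable, at 10 g/kg. Of the 11 rats per diet given by the design text, 4 per diet were measured here, 1 array each (control 1 to 4 and L. brevis 1 to 4). The source label of the controls names CRF-1 alone, and the design text was followed. Nothing in the labels ties the rats of a diet to separate cages or litters, so that tests measure the spread between these animals.

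Interferons are secreted signals that bind cell surface receptors and switch on genes through STAT and IRF transcription factors. Type I interferons act mainly through the complex of STAT and IRF9 proteins that binds the interferon-stimulated response element (ISRE). Interferon gamma, made by T cells and NK cells, acts through STAT dimers at the gamma-activated site (GAS), and the factor IRF1 relays much of its effect. In liver, hepatocytes, Kupffer cells and endothelium all respond. Antigen processing is part of the same programme: the immunoproteasome cuts proteins, TAP carries the peptides into the endoplasmic reticulum, and class I molecules with beta-2 microglobulin present them. In RNA of a whole tissue, fewer cells of a type and less RNA per cell cannot be told apart.

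The promoters of these genes shared a feature that their choice by name did not use directly. RefSeq promoter windows (build GRCr8, 250 bases before to 50 after the gene start) were available for 25 of the 32 genes. The ISRE core, searched on both strands as GAAA followed by 2 free bases and a second GAAA, stood in 19 of the 25 windows, 76%, against 3.92% of all 33469 windows of that length. The GAS pattern TTCNNNGAA, which reads the same on both strands, stood in 8 of 25, 32%, against 8.87% of all windows. Both occurred together in 6 member windows and in 0.514% of all windows, and in Bst2 a GAS match overlapped an ISRE match. Stat2, Mx1, Oasl and Psmb9 had neither set of letters in the window. A match is a run of letters and not a measured binding site.

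Stretches before the gene start are shown for 6 genes on which the results below turn, 5' to 3' on the coding strand, with ISRE and GAS matches in capitals. Those of Irf1 (chr10:38417785-38417934, plus strand), Gbp2 (chr2:234005577-234005726, plus strand), Igtp (chr10:42874897-42875046, plus strand) and Tap1 (chr20:4668544-4668693, minus strand) are the 150 bases next to the start. In Irgm and B2m another annotated transcript begins further upstream, and only 30 bases around the matches of Irgm (chr10:33742599-33742628, minus strand) and the 96 bases before the outermost start of B2m (chr3:129549140-129549235, plus strand) are given.
Irf1: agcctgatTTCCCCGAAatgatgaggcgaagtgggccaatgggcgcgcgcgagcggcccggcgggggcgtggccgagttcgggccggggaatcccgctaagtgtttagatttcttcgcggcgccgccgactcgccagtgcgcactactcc
Gbp2: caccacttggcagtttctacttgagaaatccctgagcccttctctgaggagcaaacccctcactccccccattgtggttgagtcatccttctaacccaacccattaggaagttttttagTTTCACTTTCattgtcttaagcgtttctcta
Igtp: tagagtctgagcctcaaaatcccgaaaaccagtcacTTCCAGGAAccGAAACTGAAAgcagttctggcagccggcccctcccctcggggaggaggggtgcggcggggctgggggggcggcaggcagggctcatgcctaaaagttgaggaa
Irgm: ttcgtTTCAAGGAAtaGAAACTGAAAccga
Tap1: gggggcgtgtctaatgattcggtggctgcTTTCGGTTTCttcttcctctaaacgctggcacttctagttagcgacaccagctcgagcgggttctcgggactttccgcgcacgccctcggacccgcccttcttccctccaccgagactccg
B2m: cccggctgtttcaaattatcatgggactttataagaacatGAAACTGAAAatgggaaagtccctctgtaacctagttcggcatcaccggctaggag
In Igtp the GAS match began 114 bases before the start and the ISRE match 103 bases before it, and in Irgm the matches began 45 and 34 bases before it. In both genes 2 bases separated the GAS from the ISRE. This joint pattern, the GAS letters, 2 free bases and the ISRE core, was searched on both strands after it had been seen in these windows. It stood in 7 of the 33469 windows, 0.021%, and besides Igtp and Irgm these were Irgm2, Ifgga2l2, Parp14, Stra8 and LOC134480693. Tap1 and Psmb9 lie head to head on chromosome 20, and their windows overlapped by 44 bases. The Tap1 window held 1 ISRE match and that of Psmb9 held none.

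**Figure D1:**
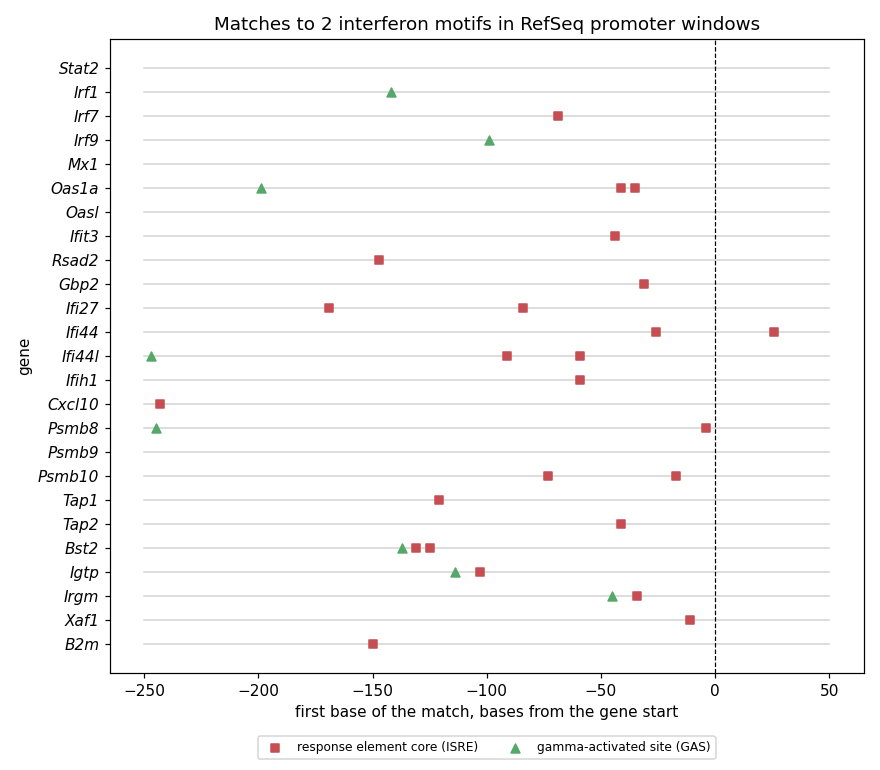
Matches to the ISRE core (red squares) and the GAS pattern (green triangles) in the RefSeq promoter windows of 25 genes. The x axis is the first base of the match in bases from the gene start (dashed line), and each grey line is a window. The adjoining GAS and ISRE matches of Igtp and Irgm sit at -114 and -103 and at -45 and -34.

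Of the 31 genes with a probe set, 17 varied between arrays and 14 did not. A probe set was counted as varying where its values ranged by more than 0.01 log2 over the 8 arrays, since most probe sets of the deposited table hold a single value throughout. Such a value does not show that the gene had the same level in all rats. By the same count 29.3% of all genes varied, against 54.8% of the members. The flat members were many of the classic type I effectors. Mx1, an antiviral dynamin-like protein, held 6.96 on the log2 scale, Oas1a, which makes the activator of RNase L, held 7.06, and its relative Oasl held 6.70. Ifit1 and Ifit3, which bind foreign RNA, held 6.33 and 6.48. Ifi44 held 7.20, and Usp18, which removes ISG15 from proteins, held 7.69. The RNA sensors Ifih1 (MDA5) and Rigi (RIG-I) held 6.83 and 8.51. The chemokine Cxcl10 held 6.88, the factor Irf7 7.82 and the immunoproteasome subunit Psmb10 7.95. Tap2, the partner of Tap1 in the peptide transporter, held 7.46, and Irf9 held 7.41 and 7.55 at its probe sets. No diet difference could be measured for any of these 14 genes.

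Array medians over all non-control probe sets lay between 6.61 and 6.63. Since most of these probe sets hold a single value, the medians can show little of any difference between arrays. The GAPDH control signal at the 5' end minus that at the 3' end, a sign of RNA integrity and labelling, ran from -2.93 to -1.83 in control rats and from -2.20 to -0.68 in L. brevis rats. L. brevis 1 was the only L. brevis rat inside the control range. It also stood apart in the test: 2 genes had an adjusted p under 0.05 over all 8 arrays, 0.0481% of 4159 varying genes, and 654 did without L. brevis 1, 15.7% (8.56% lower and 7.17% higher). Hepatocyte genes such as Alb, the gene of albumin (14.26 to 14.31), were near the top of the scale on every array. T and B cell markers such as Cd3e and Ms4a1 held single values.

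Among the 17 varying genes, 4 had a lower signal and 1 a higher signal in L. brevis livers at an unadjusted p under 0.05, and 0 passed the adjusted threshold of 0.05 (limma, smallest adjusted p = 0.125). The 4 were Stat2, Ifi44l, Ifit2 and Tap1, and the 1 was B2m. The 5 of 17, 29.4%, stand beside 21.5% of all varying genes at the same unadjusted threshold, 12.9% lower and 8.66% higher. Over the 17 genes 10 differences were below 0, 58.8%, against 55.3% of all varying genes, and the median difference was -0.07 against -0.027. The diets did not overlap for 3 of the 17 genes, 17.6%, against 10.6% of all varying genes (7.09% lower and 3.51% higher). Without control 2 the median was 0.03, with 11 genes higher and 6 lower in place of 7 and 10.

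Stat2, the STAT that joins IRF9 in the type I complex, had 9.33, 9.21, 8.77 and 9.14 in control 1 to 4 and 8.89, 8.27, 8.39 and 8.40 in L. brevis 1 to 4 (log2 signal). L. brevis 1 lay above control 3, and the other L. brevis rats lay below all controls. The means were 9.11 ± 0.24 and 8.49 ± 0.28 (SD, n = 4 each), a difference of -0.63 (SE 0.17) or 1.55-fold (adjusted p = 0.136, limma). The other Stat2 probe set differed by -0.22 (SE 0.08, adjusted p = 0.171, limma).

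Irf1, the transcription factor that relays interferon gamma signals, had 8.34, 9.01, 8.24 and 8.68 in control rats and 8.41, 8.46, 8.08 and 8.07 in L. brevis rats. Control 2 and 4 were above every L. brevis rat, and control 1 and 3 were inside their range. The difference was -0.31 (SE 0.19, adjusted p = 0.336, limma), with a 95% interval from -0.75 to 0.13.

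Ifi44l, an interferon-induced gene next to Ifi44, had 7.68, 8.17, 7.62 and 7.74 in control rats and 7.43, 7.37, 7.19 and 6.98 in L. brevis rats. Every L. brevis value lay below every control value. The means were 7.80 ± 0.25 and 7.24 ± 0.20, a difference of -0.56 (SE 0.15) or 1.47-fold (adjusted p = 0.136, limma). Its promoter window held 2 ISRE matches and 1 GAS match.

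Ifit2, which binds viral RNA with other IFIT proteins, had 8.40, 8.68, 8.36 and 8.20 in control rats and 7.75, 8.19, 8.03 and 7.87 in L. brevis rats. The diets did not overlap, but control 4 and L. brevis 2 were close, at 8.20 and 8.19. The means were 8.41 ± 0.20 and 7.96 ± 0.19, a difference of -0.45 (SE 0.14) or 1.37-fold (adjusted p = 0.139, limma). A second probe set of Ifit2 held 7.47 on all arrays.

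Tap1, a subunit of the peptide transporter, had 8.09, 8.12, 7.54 and 7.98 in control rats and 7.65, 7.68, 7.51 and 7.42 in L. brevis rats. Control 3 was the lowest control and lay among the L. brevis values, while the other controls lay above all of them. The means were 7.93 ± 0.27 and 7.56 ± 0.12, a difference of -0.37 (SE 0.14) or 1.29-fold (adjusted p = 0.175, limma). A second probe set held 6.27 throughout.

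B2m, the light chain of all class I molecules, had 13.05, 13.06, 12.83 and 12.89 in control rats and 13.20, 13.24, 13.56 and 13.39 in L. brevis rats. Every L. brevis value lay above every control value. The means were 12.96 ± 0.11 and 13.35 ± 0.16, a difference of 0.39 (SE 0.09) or 1.31-fold (adjusted p = 0.125, limma). The second B2m probe set ran from 10.40 to 10.55 over all rats and differed by 0.06 (SE 0.06, adjusted p = 0.571, limma), so that the probe sets disagreed in size. The first one has an identifier suffix that marks probes able to match more than 1 transcript.

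**Figure D2:**
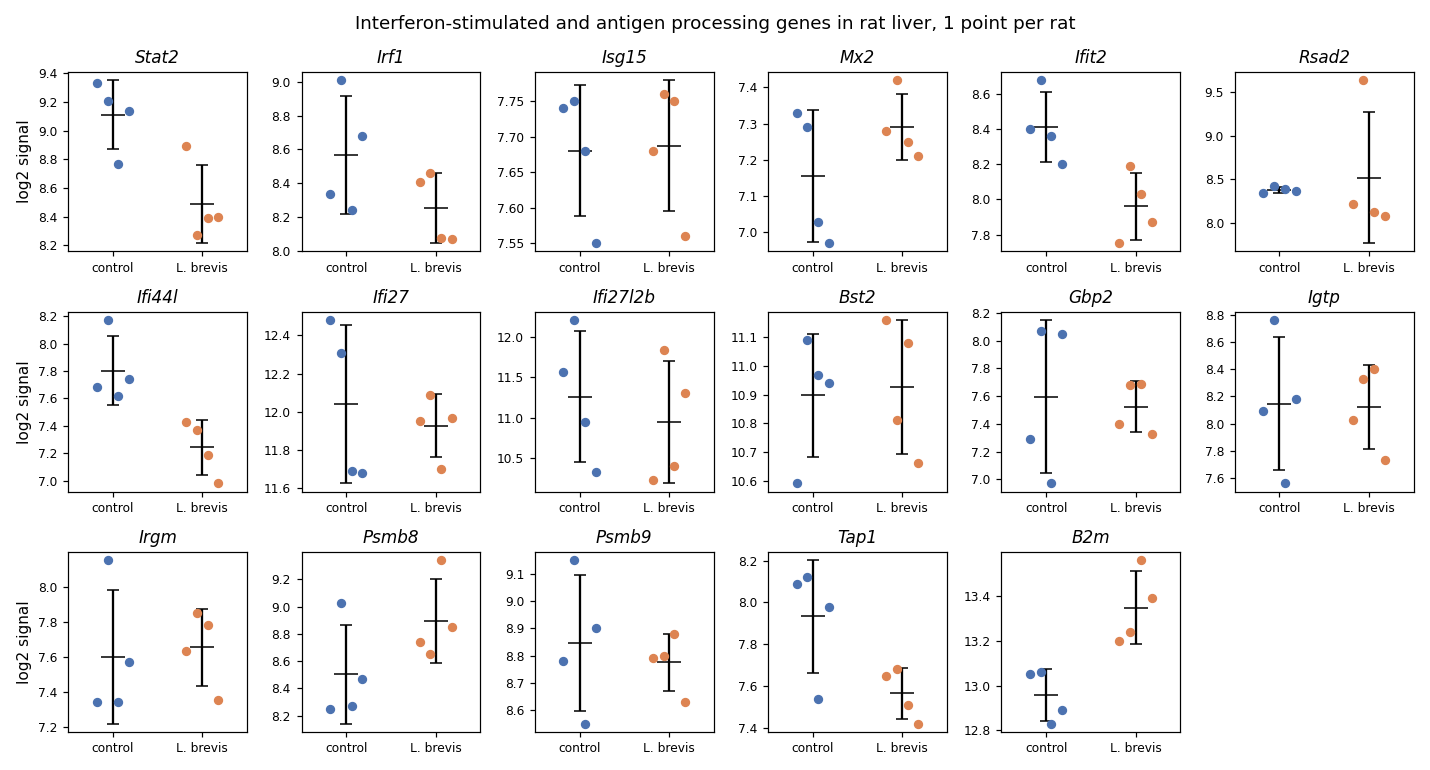
Log2 signal of the 17 varying genes, 1 point per rat in the order 1 to 4 from left to right, controls in blue and L. brevis rats in orange, with the mean and SD of each diet in black. Each panel has its own y axis, which does not start at 0. The diets do not overlap for Ifi44l, Ifit2 and B2m, and control 2 is the highest control in 14 of the 17 panels.

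When the GAPDH signal difference between transcript ends was added as a covariate, Ifit2 (-0.57, SE 0.19) and Ifi44l (-0.56, SE 0.23) kept an unadjusted p under 0.05, with adjusted p = 0.588 and 0.634 (limma). Stat2 was then at -0.48, Tap1 at -0.41 and B2m at 0.25, and these 3 no longer had an unadjusted p under 0.05. The size of the difference was smaller than without the covariate for Stat2 and B2m, the same for Ifi44l and larger for Ifit2 and Tap1. Without L. brevis 1, Stat2 (-0.76, adjusted p = 0.0249), Ifi44l (-0.62, adjusted p = 0.0459) and B2m (0.44, adjusted p = 0.0322) passed the adjusted threshold (limma). These 3 of 17 genes, 17.6%, stand beside the 15.7% of all varying genes that passed it without that rat. The part of RNA integrity in the 5 differences was not tested beyond these values.

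Markers of other liver cells also had diet differences, with 0 past the adjusted threshold. All 6 varying endothelial markers of 7 measured were lower in L. brevis livers, with a median difference of -0.43. Of them 3 had an unadjusted p under 0.05 and 0 passed the adjusted threshold (limma). Of all varying genes 55.3% were lower, and 12.9% were lower at that unadjusted threshold. Kdr, a receptor for vascular growth factor (difference -0.46, SE 0.11), and Pecam1, an adhesion molecule (-0.26, SE 0.08), did not overlap between diets. Of all varying genes 7.09% were lower without overlap. The summed linear signal of the 6 endothelial markers ran from 3312 to 5158 in control rats and from 2914 to 3182 in L. brevis rats, without overlap. Kdr and Lyve1, the brightest, weigh most in this sum, and Lyve1, Stab1, Stab2 and Vwf each overlapped between diets. Of 8 varying macrophage and Kupffer cell markers of 9 measured, 7 were higher in L. brevis livers, with a median of 0.15. Of them 2 had an unadjusted p under 0.05 and 0 passed the adjusted threshold (limma). Of all varying genes 8.66% were higher at that unadjusted threshold. Adgre1, a macrophage surface receptor, did not overlap (7.39 to 7.79 in control rats, 7.92 to 8.62 in L. brevis rats, difference 0.65, SE 0.16). Of all varying genes 3.51% were higher without overlap. The other higher markers of this list differed by 0.01 (Clec4f) to 0.73 (C1qb), and Cd163 was lower, at -0.16 (SE 0.11). The summed signal of the 8 markers ran from 5363 to 7039 in control rats and from 5604 to 7902 in L. brevis rats. The part of these cells in the differences of Stat2, Ifi44l, Ifit2, Tap1 and B2m was not tested.

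**Figure D3:**
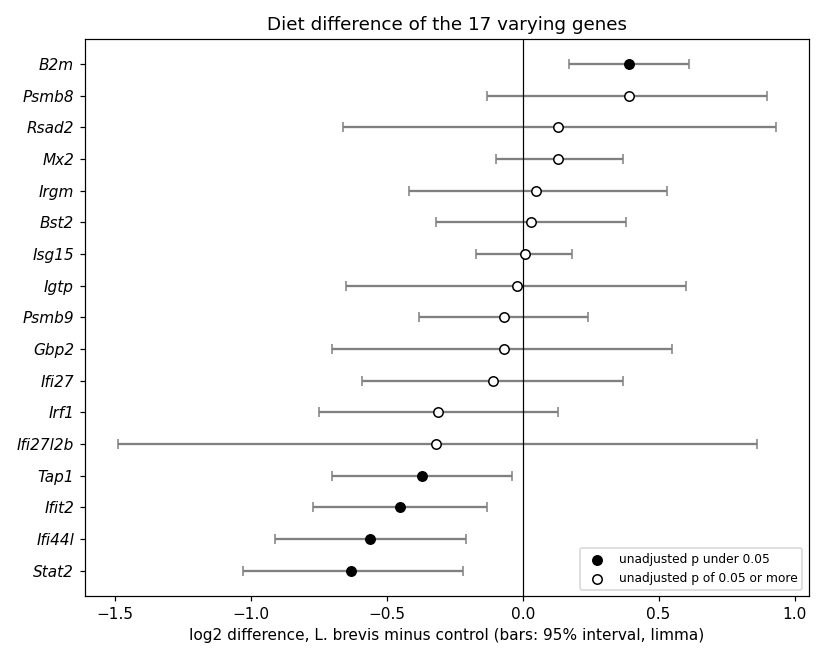
Difference in log2 signal, L. brevis minus control, for the 17 varying genes with the 95% interval of the limma fit. Filled points had an unadjusted p under 0.05. The intervals of Stat2, Ifi44l, Ifit2 and Tap1 lie below 0, that of B2m lies above 0, and none of the 17 passed the adjusted threshold.

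The other antiviral effectors showed no diet difference at an unadjusted p under 0.05. Rsad2 (viperin), which makes a chain-terminating nucleotide, had 8.34, 8.42, 8.39 and 8.36 in control rats and 8.22, 9.64, 8.12 and 8.08 in L. brevis rats. L. brevis 2 was far above the other 7 rats, and the other L. brevis rats were below all controls. The difference was 0.13 (SE 0.34, adjusted p = 0.837, limma), and it was -0.24 (SE 0.07, adjusted p = 0.271, limma) without L. brevis 2. Isg15, a ubiquitin-like modifier, stayed between 7.55 and 7.76 in all rats, with a difference of 0.01 and an interval from -0.17 to 0.18. Mx2 ran from 6.97 to 7.33 in control rats and from 7.21 to 7.42 in L. brevis rats (difference 0.13, SE 0.10). Its second probe set had 8.17 in control 2 and 5.65 to 5.92 in the other 7 rats, with a difference of -0.60 (SE 0.54).

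The ISG12 family varied more from rat to rat than between diets. Ifi27, a small membrane protein induced by type I interferon, ran from 11.68 to 12.48 in control rats and from 11.70 to 12.09 in L. brevis rats (difference -0.11, SE 0.20). Ifi27l2b, its relative on the same chromosome, had the widest range of the 17 genes at the probe sets that stand for them, 1.99 log2. It had 11.57, 12.21, 10.94 and 10.32 in control rats and 10.23, 11.84, 10.40 and 11.31 in L. brevis rats. High and low rats occurred on both diets, and the difference of -0.32 (SE 0.50) had an interval from -1.49 to 0.86. Bst2 (tetherin), which holds budding virus at the cell surface, ran from 10.59 to 11.09 and from 10.66 to 11.16 (difference 0.03, SE 0.15).

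The guanosine triphosphatases of defence against intracellular parasites, classic targets of interferon gamma, differed little between diets in the main test. Gbp2 had 7.29, 8.07, 6.97 and 8.05 in control rats and 7.40, 7.68, 7.69 and 7.33 in L. brevis rats. Its controls fell into a high pair, control 2 and 4, and a low pair, with the L. brevis rats between them. Igtp had 8.09, 8.76, 7.56 and 8.18 in control rats and 8.03, 8.33, 8.40 and 7.73 in L. brevis rats. Irgm had 7.34, 8.15, 7.34 and 7.57 in control rats and 7.63, 7.85, 7.78 and 7.35 in L. brevis rats. In each of the 3 genes the highest control was control 2 and the L. brevis values lay inside the control range. The differences were -0.07 (SE 0.27) for Gbp2, -0.02 (SE 0.27) for Igtp and 0.05 (SE 0.20) for Irgm, with intervals from -0.70 to 0.55, from -0.65 to 0.60 and from -0.42 to 0.53. With the GAPDH covariate they were -0.55 (SE 0.32), -0.34 (SE 0.37) and -0.16 (SE 0.29), none at an unadjusted p under 0.05 (limma). A second probe set of Igtp held 6.20 on all arrays. A further probe set annotated to Igtp together with near copies of it was left out.

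Of the immunoproteasome subunits, Psmb8 (LMP7) had 8.25, 9.03, 8.27 and 8.47 in control rats and 8.74, 8.65, 9.34 and 8.85 in L. brevis rats. All 4 L. brevis rats lay above control 1, 3 and 4, and control 2 lay among them. The difference was 0.39 (SE 0.22, adjusted p = 0.299, limma), with an interval from -0.13 to 0.90. With the GAPDH covariate it was 0.00 (SE 0.26). Psmb9 (LMP2) had 8.78, 9.15, 8.55 and 8.90 in control rats and 8.79, 8.80, 8.88 and 8.63 in L. brevis rats, with a difference of -0.07 (SE 0.13). Psmb8, Psmb9, Tap1 and Tap2 lie in the histocompatibility region of chromosome 20, where class II signals separated the rats. At one probe set of RT1-Ba control 2, control 4 and L. brevis 2 had 12.39, 12.21 and 11.88, control 3 and L. brevis 1, 3 and 4 had 5.59 to 5.93, and control 1 had 10.50. At another RT1-Ba probe set the order was turned, with 4.23, 4.33 and 4.38 in the first 3 rats and 10.37 to 11.81 in the other 5. For Psmb8 the first 3 of these rats had 9.03, 8.47 and 8.65, inside the 8.25 to 9.34 of the other 5. For Psmb9 they had 9.15, 8.90 and 8.80, against 8.55 to 8.88 in the other 5. For Tap1 they had 8.12, 7.98 and 7.68, against 8.09 in control 1 and 7.42 to 7.65 in the remaining 4. Their highest values of Psmb9 and Tap1 were both in control 2, and the part of the class II split in these values was not tested.

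Control 2 was the rat with the most interferon-stimulated signal. It was the highest of the 8 arrays for 9 of the 17 genes, 52.9%, against 11.6% of all varying genes. Among the 4 controls it was the highest for 14 of 17 genes, 82.4%, against 24.8% of all varying genes, and the exceptions were Stat2, Mx2 and Ifi27, highest in control 1. Its value exceeded the mean of the other controls for 17 of 17 genes. The median excess was 0.37 log2, against 0.008 over all varying genes, and the largest were those of Ifi27l2b (1.27), Igtp (0.82), Irgm (0.73) and Psmb8 (0.70). This pattern was chosen after the values were seen and has no test.

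Markers of other cells were also high in control 2. The neutrophil gene S100a9 had 9.77 in control 2 and 6.51 to 7.41 in the other controls, and S100a8 had 8.50 against 6.18 to 6.68. L. brevis 3, with 8.33 and 7.56, also lay above those other controls for both genes. The 2 other neutrophil markers measured, Csf3r and Cxcr2, held single values. All 8 varying macrophage and Kupffer cell markers were highest among the controls in control 2. Of the endothelial markers 4 of 6 varying ones were, and control 2 had the highest summed signal of the controls in both lists, 7039 and 5158. In L. brevis rats the macrophage and endothelial sums reached 7902 and 3182. Of 14 measured lymphocyte and NK cell markers only Ptprc and Prf1 varied, with a summed signal from 410 to 483 in control rats and from 428 to 482 in L. brevis rats. The 483 was that of control 2. Over the 7 varying hepatocyte markers control 2 again had the highest summed signal of the controls, 91218, where the lowest was 87858. It was the highest control for 4 of these 7. Of 3 measured plasmacytoid dendritic cell markers only Tcf4 varied, and control 2 was not its highest control. The part of these cells in the signal of control 2 was not tested.

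**Figure D4:**
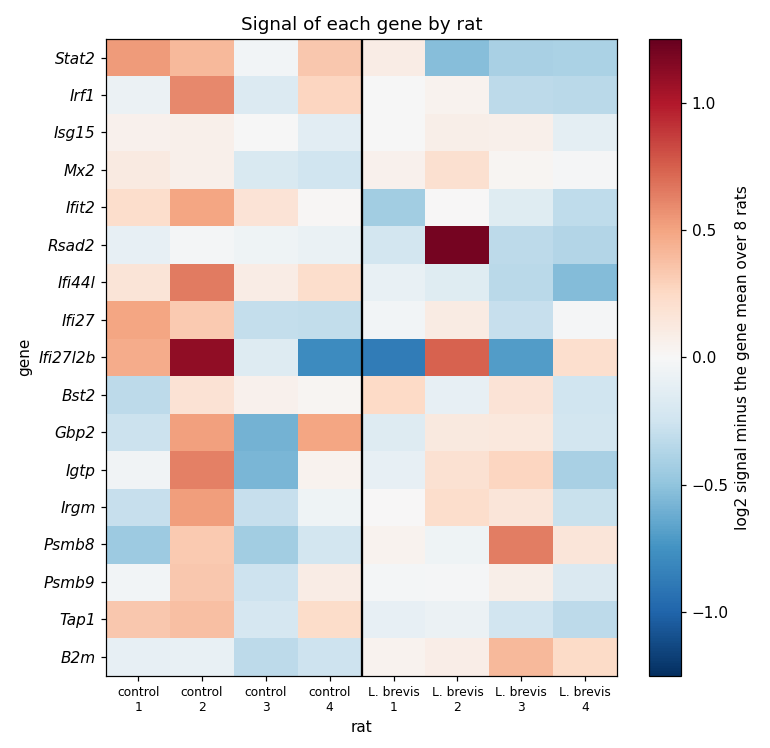
Log2 signal of each of the 17 varying genes (y axis) in each rat (x axis), as the difference from the mean of that gene over the 8 rats, red for above and blue for below. The black line separates the diets. The column of control 2 is mostly red, and the single dark cell of Rsad2 is L. brevis 2.

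Correlations between the genes were mostly positive over the 8 rats, and less so without control 2. Over the 8 rats, with values centred on each diet mean, the median Pearson correlation between 2 of the 17 genes was 0.39 and 122 of 136 pairs, 89.7%, were positive. Over all pairs of the 4159 varying genes the median was 0.01 and 50.4% were positive. Without control 2, which exceeded the mean of the other controls for all 17 genes, the centred median fell to 0.23 and 95 of 136 pairs, 69.9%, were positive, against 0.01 and 50.3% over all varying genes. Without centring the median was 0.34 with 108 positive pairs over the 8 rats, and 0.14 with 87 positive pairs without control 2. These medians are descriptions with no test, since the pairs share rats and genes. An exact permutation test over the 40320 pairings gave an unadjusted p under 0.05 for 18 of 136 pairs, 17 positive and 1 negative, and for 0 pairs after Benjamini-Hochberg adjustment over the 136 (smallest adjusted p = 0.0944).

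The closest pair was Psmb9 and Igtp, with r = 0.95 and rho = 0.90 (exact permutation p = 0.000694 and 0.00456, adjusted p = 0.0944 and 0.208). Centred on the diets r was 0.97, and without control 2 and control 3, the rats farthest from the median of Psmb9, it was 0.84. Igtp and Irgm, the genes with the same GAS and ISRE spacing, followed with r = 0.90 and rho = 0.86 (exact permutation p = 0.00193 and 0.0107, adjusted p = 0.103 and 0.208), and r was 0.81 without control 2 and control 3. Gbp2 and Psmb9 had r = 0.88 and rho = 0.98 (exact permutation p = 0.00228 and 0.000397, adjusted p = 0.103 and 0.054), and r was 0.76 without the same rats. These 4 genes and Irf1 form a block of correlations on diet-centred values. Control 2 was the highest control for each of them, as it was for 14 of the 17 genes. The correlations of Irf1 in this block were smaller without control 2 and L. brevis 4, the rats farthest from its median. Without these rats its r went from 0.71 to 0.53 with Gbp2, from 0.79 to 0.32 with Psmb9 and from 0.66 to 0.01 with Irgm.

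Irf1 and Ifi44l had r = 0.88 and rho = 0.79 (exact permutation p = 0.00491 and 0.0279, adjusted p = 0.134 and 0.292), with r = 0.61 without control 2 and L. brevis 4. For Irf1 and Igtp r was 0.65 (rho 0.55, exact permutation p = 0.0775 and 0.171, adjusted p = 0.428 and 0.596) and 0.75 on diet-centred values. It fell to 0.30 without control 2 and to 0.09 without control 2 and L. brevis 4. Leaving out the rats farthest from the median of Irf1 narrows its range, so the fall cannot show whether the relation rests on them. Ifi44l and Tap1 had r = 0.85 and rho = 0.88 (exact permutation p = 0.00384 and 0.00724, adjusted p = 0.131 and 0.208), and r was 0.67 with the diets centred. Ifi27 and Mx2 had r = 0.92 on centred values and 0.70 without centring (rho 0.86, exact permutation p = 0.0541 and 0.0107, adjusted p = 0.36 and 0.208). Within the control rats alone r was 0.99, and within the L. brevis rats 0.59. Without control 3 and control 4, r of that pair was 0.42. B2m ran against Ifi44l at r = -0.71 and rho = -0.76 (exact permutation p = 0.0478 and 0.0368, adjusted p = 0.36 and 0.312), and at -0.06 on centred values.

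**Figure D5:**
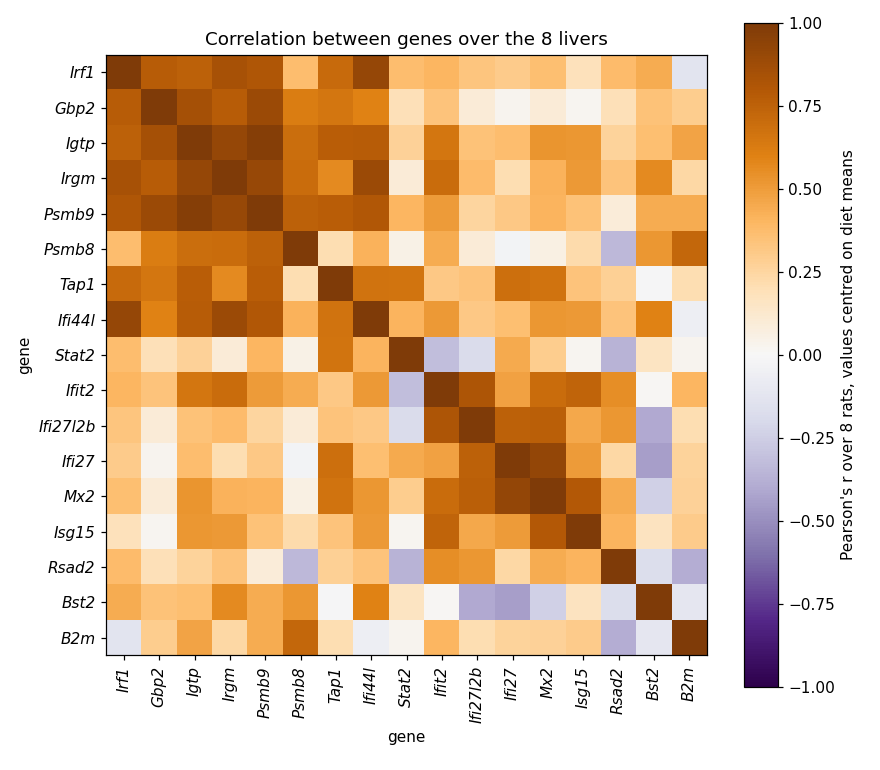
Pearson correlation over the 8 rats between the 17 varying genes on both axes, with values centred on the mean of each diet, from -1 (purple) to 1 (dark orange). Irf1, Gbp2, Igtp, Irgm and Psmb9 form the darkest block at the upper left, and Ifi27l2b, Ifi27 and Mx2 form a second one (0.75 to 0.92). Isg15 beside them has 0.79 with Mx2, 0.50 with Ifi27 and 0.46 with Ifi27l2b. The order of the genes was set by hand.

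Of 68 further genes of interferon signalling and antigen presentation, 56 had a probe set and 25 varied, 13 higher and 12 lower in L. brevis livers with a median of 0.00. At an unadjusted p under 0.05, 0 were higher and 5 lower, against 8.66% and 12.9% of all varying genes, and 0 passed the adjusted threshold (limma). Irf3, the factor that turns on interferon genes after viral sensing, had 10.45, 10.07, 10.46 and 9.80 in control rats and 9.81, 9.22, 9.26 and 8.90 in L. brevis rats, a difference of -0.90 (SE 0.23, adjusted p = 0.125, limma). Only control 4 and L. brevis 1 overlapped. Ifnar2, a chain of the type I interferon receptor, differed by -0.43 (SE 0.15) and Sp110, a nuclear body protein, by -0.41 (SE 0.12). The diets did not overlap for 2 of the 25 genes, both lower in L. brevis livers. Of all varying genes 10.6% did not overlap, 7.09% lower and 3.51% higher. The 2 were Ifi35, an interferon-induced leucine zipper protein (8.29 to 8.91 against 7.80 to 8.20, difference -0.50, SE 0.16), and Adar, the RNA-editing enzyme (7.43 to 7.60 against 7.27 to 7.42, difference -0.17, SE 0.07). The interferon genes Ifnb1 and Ifng held single values of 6.20 and 5.75, and the receptor chain Ifnar1 held 7.17. These 3 were named for their role after their values were seen.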

How the data were processed

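Liver RNA of 8 rats was measured on Affymetrix 3' arrays, 1 per rat. RNA was isolated with Trizol, cleaned on a column and biotin-labelled by in vitro transcription, per the labels' protocols. The deposited values are log2 signals per probe set, already normalized by the authors with a method not given in the sources used here. The number of arrays limits their precision. Of 31042 non-control probe sets, 24719 ranged by at most 0.01 log2 and were left out, since they carry no measured difference. The other 6323 were tested with limma 3.58.1 in R 4.3.3 (lmFit, eBayes with a trend on intensity), two-sided, and p-values were adjusted over all 6323 by Benjamini-Hochberg. On simulated data of this comparison with 6323 probe sets, it recovered 68.5% of 200 shifts of 1 log2 unit with 10 false calls, and 92.5% of shifts of 2 log2 units with 13. A gene stood for its brightest varying probe set. Symbols came from the platform annotation (1 symbol for 20826 probe sets, several for 436, none for 9780), updated to RefSeq (GRCr8). Every array value was given for members at an unadjusted p under 0.05, those whose diets did not overlap and the 10 of widest range, and further genes at an unadjusted p under 0.05 were named. The members and lists were chosen with earlier results of these data known. Alternatives were quantile and median scaling, other filters, a GAPDH covariate, a replicate block and leaving out each rat.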

Additional observations from a re-analysis of the deposited data

Results flagged for a closer look

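Among 40 groups of 4 rats, 1 per diet and varying probe set of the members, 2 held a rat far from the other 3, where chance flags about 1 group in 20, or 2 groups here. The second Mx2 probe set had 8.17 in control 2 and 5.65 to 5.92 in the other controls, while the Mx2 probe set that stands for the gene had 7.29 in control 2, inside the control range. Rsad2 had 9.64 in L. brevis 2 and 8.08 to 8.22 in the other L. brevis rats.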

How the results depend on the processing

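No member passed the adjusted threshold on all 8 arrays under any alternative run; leaving out 1 rat gave 0 to 3 such members, the 3 without L. brevis 1. Members at an unadjusted p under 0.05 numbered 5 in the main test, 2 with the GAPDH covariate and 4 to 6 with 1 rat left out, and members whose diets did not overlap numbered 3, 2 under median centring and under quantile normalization, and 3 to 5 with 1 rat left out. The median difference over the members was -0.07, -0.23 with the GAPDH covariate, and from -0.22 without control 3 to 0.03 without control 2. Probe sets called numbered 4 in the main test, 44 when flat ones were tested too, 1 with a varying limit of 0.1 log2, 0 under median centring, with the GAPDH covariate and with a replicate block, and 0 to 1146 with 1 rat left out. The replicate block left 0 members past the adjusted threshold and 5 at an unadjusted p under 0.05; same-numbered rats had correlations of 0.0778 to 0.381 and did not all correlate best with each other, so the numbers were not taken as pairs. Median centring moved the higher share of non-overlapping probe sets from 37.3% to 50.5%. None of the alternatives gave a pair of members past the adjusted threshold for co-movement, 0 in each of the 3 added after the data were seen. The direction of 9 small, uncalled differences changed in 21 cases. With 1 rat left out they ran from -0.04 to 0.05 for Isg15, -0.24 to 0.28 for Rsad2, -0.28 to 0.09 for Gbp2, -0.23 to 0.04 for Ifi27, -0.63 to 0.00 for Ifi27l2b, -0.17 to 0.03 for Psmb9, -0.07 to 0.12 for Bst2, -0.22 to 0.18 for Igtp and -0.03 to 0.23 for Irgm. Without control 2, Gbp2, Ifi27l2b, Psmb9 and Igtp turned, and without L. brevis 2 Rsad2 did. Irgm turned with the GAPDH covariate (-0.16), Igtp under median centring (0.01) and Bst2 under quantile normalization (-0.05). The cause was not tested. The number of rats limits every comparison.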

Other observations

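Of the 25 varying further genes of interferon signalling and antigen presentation, 10 were highest among the controls in control 2, against 24.8% of all varying genes for the same count. Ifitm3, which blocks the entry of enveloped viruses, had 10.62 in control 2, 8.72 to 9.24 in the other controls and 9.48 to 9.69 in L. brevis rats. The lysosomal protease gene Ctss, which trims the class II invariant chain, had 10.43 in control 2, 9.45 to 10.06 in the other controls and 10.18 to 10.65 in L. brevis rats. Parp14, 1 of the 7 genes with the joint GAS and ISRE pattern of Igtp and Irgm, had 6.92 in control 2, 6.67 to 6.84 in the other controls and 6.66 to 7.01 in L. brevis rats. L. brevis 3 exceeded control 2 for Ctss, L. brevis 3 and 4 did for Parp14, and no L. brevis rat did for Ifitm3. These 3 genes were singled out after their values were seen.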
